A study of Mus musculus with 4 samples.

Results

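Endoplasmic reticulum (ER) folding and secretion genes were compared between effector CD4 cells of the CNS and of draining lymph nodes (dLN) in mice with EAE, a mouse model of MS. The set was a list of 45 genes named for their function (the unfolded protein response, ER chaperones, the translocon and early steps of secretion), taken by symbol from the 23990 gene symbols of the tables. All cells came from wild type C57BL/6 mice (C57BL/6J in the Methods) immunized with MOG. They were sorted at disease onset as CD44+CD4 cells from spinal cords (CNS, 2 libraries) and from pooled dLN (2 libraries), and no naive or unimmunized sample was part of the comparison. The Methods state that sorted cells were stimulated with PMA and ionomycin, whereas the labels speak of fresh sorting and name no stimulation.

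The ER is where secreted and membrane proteins enter the secretory route, fold, receive disulfide bonds and sugars, and are sent on to the Golgi or withdrawn for degradation. When unfolded protein builds up, 3 sensors in the ER membrane (IRE1, PERK and ATF6) start the unfolded protein response: IRE1 cuts a short piece out of the Xbp1 RNA, PERK slows translation, and ATF6 is cleaved to release a transcription factor. Effector CD4 cells secrete cytokines, and activated lymphocytes are known to use this response.

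Levels are FPKM (fragments scaled to transcript length and to the size of the library), summed over the transcripts of a gene, so that levels of different genes can be compared per length. The files hold no counts, but low values lay on whole multiples of 1 fragment, which put the depth at 18.5 M to 21.9 M fragments per library. A gene whose mean reached 1 FPKM in either tissue entered a limma fit on log2(FPKM + 1). Log2 ratios give CNS over dLN from this fit, and for low genes the added 1 makes them too small. A gene was called at a Benjamini-Hochberg adjusted p under 0.05 over all 10634 genes tested. With 2 libraries per tissue an exact permutation test of a single gene cannot go below p = 0.333 (two-sided), and nothing says that the libraries came from separate animals, so that p-values measure only the spread between these libraries. All 13 T cell markers checked were detected in every library. Of these, 7 were called higher in CNS (53.8%) and 4 lower (30.8%), beside 37.8% and 37.2% of all genes tested. Cd3e was at 328 and 389 FPKM in CNS and at 104 and 89.2 FPKM in dLN. Zap70 went the other way, at 119 and 121 FPKM in CNS and at 209 and 245 FPKM in dLN. Of 15 B and plasma cell markers Pax5 and Tnfrsf17 were listed at 0 in all 4 libraries and 4 reached a mean of 1 FPKM in a tissue. These were Cd79b (1.14 and 1.47 FPKM in CNS against 0.214 and 0.179 FPKM in dLN), Sdc1, Prdm1 and Pou2af1. Myeloid and microglial markers summed to 151 and 700 FPKM in the CNS libraries and to 53.9 and 46.1 FPKM in dLN, S100a8 reaching 101 FPKM in CNS replicate 2 alone. Cst3 made up most of the dLN sums, at 48.9 and 41.9 FPKM, and was at 118 and 289 FPKM in CNS. Of 16 such markers tested 9 were called higher in CNS (56.25%) and 0 lower. Of 6 neural markers tested 3 were called higher in CNS (50%) and 1 lower, Nefl being at 1.34 and 7.01 FPKM in CNS and at 0 in dLN. The tissues also differed in sex-linked RNA, Ddx3y at 12.7 and 11.2 FPKM in CNS against 0 in dLN, and Xist near 0 in CNS against 26.6 and 22.3 FPKM in dLN, so that tissue, sex and the separately made table of each tissue cannot be told apart.

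All 45 genes were measured and tested. In CNS effector CD4 cells 26 of them were lower, 11 were higher and 8 did not pass the test. By role, 10 of 11 chaperones and 6 of 8 genes of ER-associated degradation were lower in CNS, while 3 of 5 signal peptidase subunits were higher and 0 lower. The translocon and signal recognition particle genes (4 higher and 5 lower of 10), the sensors with Xbp1 (2 and 2 of 4) and the disulfide isomerases (1 and 1 of 4) were divided. The median log2 ratio was -0.52 over the 45 genes and 0.05 over all genes tested. Since 74.9% of all genes tested were called, a call by itself separates few genes from the rest. Of all genes, 37.2% were called lower and 37.8% higher in CNS, beside 57.8% and 24.4% of the ER genes. In 27 ER genes (60%) both CNS values lay below both dLN values, beside 43.7% of all genes tested, in 14 (31.1%) both lay above, beside 45.7%, and in 4 the tissues overlapped. Over all genes tested, the tissues did not overlap in 89.4%. At least 2-fold lower and called were 7 ER genes (15.6%) beside 18.2% of all genes, and at least 2-fold higher and called were 3 (6.67%) beside 21%, so that large changes were not more frequent among the ER genes than among all genes. Derl3 passed the filter only through dLN, the tissue where it was higher. In bulk RNA, fewer cells of a type and less RNA per cell cannot be told apart.

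**Figure D1:**
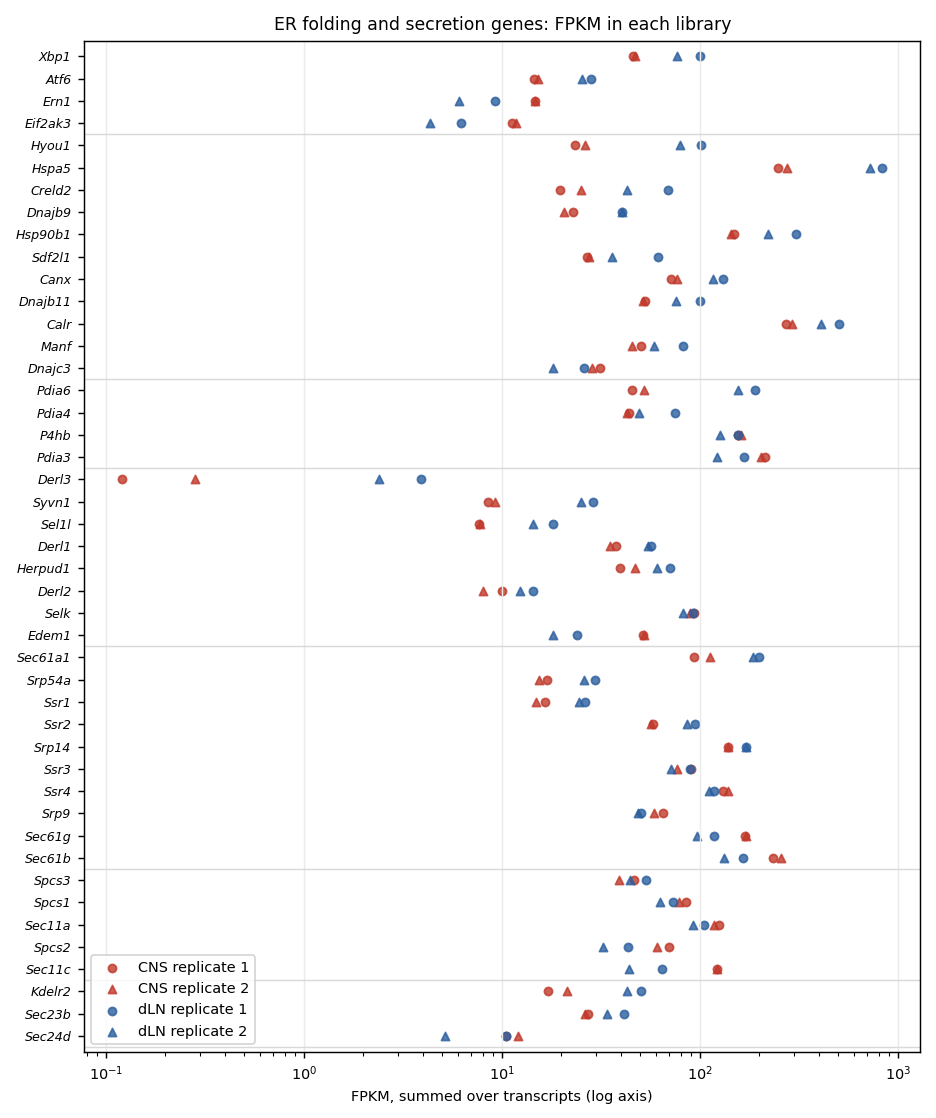
FPKM of each of the 45 genes (rows, grouped by role from sensors at the top to ER-Golgi traffic at the bottom) in the 4 libraries, on a log axis. Red points are the 2 CNS libraries and blue points the 2 dLN libraries; in the chaperone rows the blue points lie to the right for 10 of 11 genes, and in the signal peptidase rows the red points lie to the right for 4 of 5.

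The dLN libraries were not alike for these genes. In 44 of 45 genes dLN replicate 1 was above dLN replicate 2, with a median ratio of 1.22 and a range of 0.996 to 2.04, while 61.6% of all genes tested were above and their median ratio was 1.04. The CNS libraries showed no such order, with 22 of 45 genes higher in replicate 1. Without dLN replicate 1 the median log2 ratio of the 45 genes was -0.39, with Dnajc3 at 0.70 and Pdia4 at -0.19. Without dLN replicate 2 the median was -0.71, with Dnajc3 at 0.19 and Pdia4 at -0.78. Without CNS replicate 2, the library with the high myeloid markers, the median was -0.46, and without CNS replicate 1 it was -0.60. The median of all genes tested moved by 0.040, -0.047, -0.025 and 0.0054 in these fits, in the same order. In each of them fewer genes were called in total, among the ER genes and over all genes tested alike, and fewer ER genes were called higher. Over every setting tried, 17 genes were called in the same direction: the 16 lower in CNS were Atf6, Xbp1, Hspa5, Hyou1, Dnajb9, Canx, Pdia6, Sel1l, Syvn1, Derl1, Derl3, Sec61a1, Ssr1, Ssr2, Srp54a and Kdelr2, and the only one higher was Edem1. Derl3 was not tested in the setting with a minimum of 5 FPKM.

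**Figure D2:**
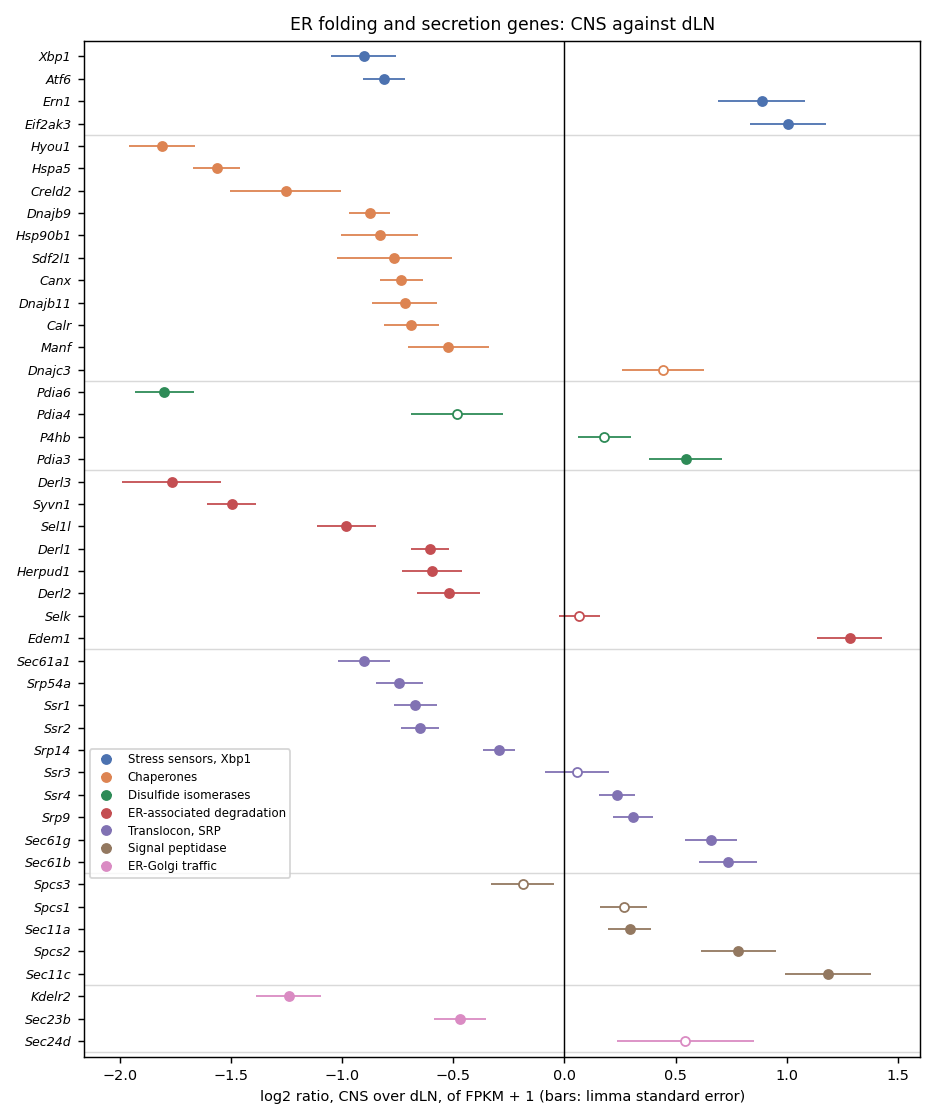
Log2 ratio of CNS over dLN, on the log2(FPKM + 1) scale, for the 45 genes by role; bars are the standard error of limma, filled points passed the test at an adjusted p under 0.05 and open points did not. The chaperones lie left of 0 apart from Dnajc3, the isomerases spread from -1.80 (Pdia6) to 0.55 (Pdia3), and the signal peptidase genes lie right of 0 apart from Spcs3.

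The 4 genes that sense and relay ER stress moved in opposite directions, 2 up and 2 down in CNS. Ern1, which encodes the kinase and RNase IRE1, was at 14.7 FPKM in both CNS libraries and at 9.26 and 6.04 FPKM in dLN. Eif2ak3, which encodes the kinase PERK, was at 11.2 and 11.7 FPKM in CNS and at 6.24 and 4.32 FPKM in dLN. Both were low, and their tissues did not overlap. Their log2 ratios were 0.89 (SE 0.19, adjusted p = 0.0109) and 1.01 (SE 0.17, adjusted p = 0.00432), and both calls were lost without either CNS library. Atf6, the cleaved transcription factor of the third branch, was at 14.5 and 15.2 FPKM in CNS and at 28.1 and 25.5 FPKM in dLN. It was lower in CNS by limma, with a log2 ratio of -0.81 (SE 0.09, adjusted p = 0.0012).

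Xbp1, the transcription factor whose RNA is the substrate of IRE1, was lower in CNS as a sum but not in both of its transcripts. The sums were 46.1 and 47.0 FPKM in CNS and 101 and 76.7 FPKM in dLN (log2 ratio -0.90, SE 0.15, adjusted p = 0.00379). The tables list 2 RefSeq transcripts of Xbp1, of 2247 and 2221 bases. Their difference of 26 bases is the length of the piece that IRE1 removes in the cytoplasm, after which the RNA encodes the active factor. The longer, unspliced transcript was at 18.3 and 19.9 FPKM in CNS and at 90.6 and 69.5 FPKM in dLN. The shorter one was at 27.8 and 27.1 FPKM in CNS and at 10.1 and 7.13 FPKM in dLN. So the shorter transcript was higher in both CNS libraries, where the sum was lower. Its share of Xbp1 was 60.4% and 57.7% in the CNS libraries and 10.1% and 9.29% in dLN. The tissue means of the share lay 49.4 percentage points apart, while the libraries of 1 tissue lay 2.68 points (CNS) and 0.774 points (dLN) apart.

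Fitted as single transcripts over 13565 transcripts, of which 66.6% were called, the longer Xbp1 transcript had a log2 ratio of -2.00 (SE 0.15, adjusted p = 0.00069) and the shorter one 1.58 (SE 0.18, adjusted p = 0.00189). This fit was chosen after the values had been seen. Of 1236 genes with more than 1 transcript and a mean of at least 10 FPKM in both tissues, 9 (0.728%) had a transcript share that moved at least as far between the tissues, and the median movement was 5.66 points. Among the other ER genes in that comparison, Hspa5 moved by 19.4 points, which 10.8% of genes reached, and the remainder by 0.0917 to 6.08 points. The piece is shown because the length difference of the transcripts turns on it. It was found in the longer transcript as the only pair of the loop letters CNGCAGC at a distance of 26 bases, among 3 such loops, in coding sequence of exon 4 of 5, on the plus strand of GRCm38 at chr11:5524254-5524329 with the piece at chr11:5524279-5524304 in capitals:
Xbp1: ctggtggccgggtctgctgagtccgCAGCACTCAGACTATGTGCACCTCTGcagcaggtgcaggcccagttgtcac
The piece lies between the cut sites that follow the G of each loop. If the transcripts differ by this piece alone, only fragments that reach it or the junction in its place tell them apart, and how the authors' program divided the rest is not stated. The values of the tissues also come from separate tables, and the part of that in the shift was not tested.

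**Figure D3:**
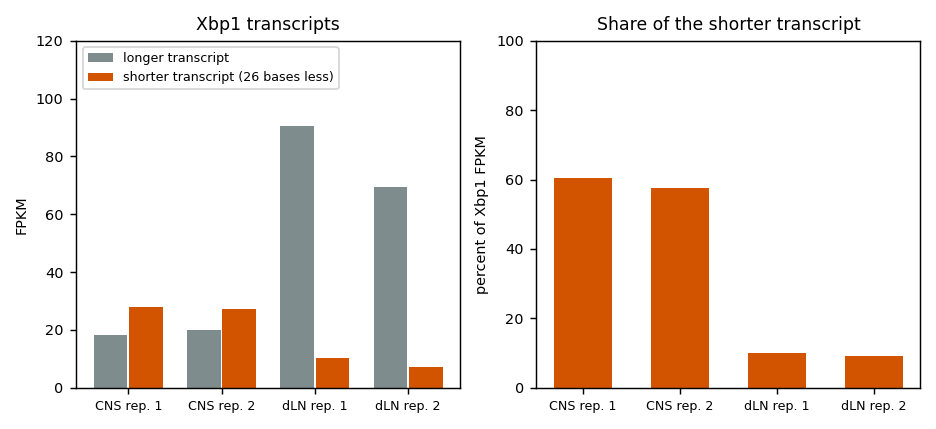
Left, FPKM of the longer (grey) and the shorter (orange) Xbp1 transcript in each library; right, the shorter transcript as a percent of Xbp1 FPKM. The shorter transcript made up 60.4% and 57.7% in the CNS libraries and 10.1% and 9.29% in the dLN libraries.

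The FPKM of the chaperones together summed to 968 and 1010 in the CNS libraries and to 2259 and 1814 in dLN, and 10 of 11 were lower in CNS (median log2 ratio -0.76). Hspa5, which encodes BiP, the Hsp70 chaperone that holds the sensors inactive, was at 249 and 274 FPKM in CNS and at 835 and 719 FPKM in dLN. It was the highest of the 45 genes in dLN and the second in CNS. Its log2 ratio was -1.57 (SE 0.11, adjusted p = 0.000241), a level 2.96-fold higher in dLN on that scale. The Hspa5 transcript of 2534 bases was lower in CNS, with a log2 ratio of -1.92 in the fit of single transcripts. The Hspa5 transcript of 2616 bases overlapped, at 69.2 and 93.0 FPKM in CNS and at 101 and 76.9 FPKM in dLN (log2 ratio -0.14, limma adjusted p = 0.577). Hyou1, which encodes the nucleotide exchange factor of BiP, was at 23.4 and 26.3 FPKM in CNS and at 102 and 79.0 FPKM in dLN, a log2 ratio of -1.81 (SE 0.15, adjusted p = 0.000402). Hspa5 stayed at about the same multiple of Hyou1 in the 4 libraries, 10.6 and 10.4 in CNS and 8.23 and 9.10 in dLN.

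The co-chaperones that bring substrates to BiP were lower in CNS, apart from 1. Dnajb9 was at 22.7 and 20.5 FPKM in CNS and at 40.5 and 40.4 FPKM in dLN (log2 ratio -0.88, SE 0.09, adjusted p = 0.000836). Dnajb11 (52.9 and 51.8 FPKM in CNS against 99.7 and 75.6 FPKM in dLN) and its partner Sdf2l1 (26.9 and 27.5 FPKM in CNS against 61.3 and 35.8 FPKM in dLN) were lower too. The Sdf2l1 call was near the threshold (adjusted p = 0.0442), and so was that of Manf, an ER protein that binds BiP and can be secreted (50.7 and 45.3 FPKM in CNS against 82.3 and 58.4 FPKM in dLN, adjusted p = 0.049). Both were lost in several other settings. Dnajc3, a co-chaperone of BiP that also restrains PERK, was at 31.3 and 28.7 FPKM in CNS and at 26.1 and 18.1 FPKM in dLN. It was the only chaperone with both CNS values above, and its log2 ratio of 0.44 (SE 0.19, adjusted p = 0.0826) did not pass the test. Creld2, which encodes an ER stress inducible protein, was at 19.7 and 24.98 FPKM in CNS and at 68.7 and 43.0 FPKM in dLN, a log2 ratio of -1.25 (SE 0.25, adjusted p = 0.00791).

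Hsp90b1, the Hsp90 of the ER, was at 148 and 143 FPKM in CNS and at 308 and 220 FPKM in dLN (log2 ratio -0.83, SE 0.17, adjusted p = 0.00882). The lectin chaperones, which hold sugar-bearing proteins while they fold, were lower in CNS too. Calr was at 272 and 291 FPKM in CNS and at 505 and 408 FPKM in dLN (log2 ratio -0.69), and Canx was at 71.5 and 76.9 FPKM in CNS and at 131 and 117 FPKM in dLN (log2 ratio -0.73). In CNS Calr stood above Hspa5, with a ratio of Hspa5 to Calr of 0.915 and 0.943, and in dLN below it, with ratios of 1.65 and 1.76.

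The disulfide isomerases did not share a direction. Pdia6, which binds BiP and can quench active IRE1 and PERK, was at 45.2 and 51.9 FPKM in CNS and at 189 and 155 FPKM in dLN, a log2 ratio of -1.80 (SE 0.13, adjusted p = 0.000303). Pdia3, the isomerase that works with Calr and Canx on glycoproteins and in peptide loading of MHC class I, was higher in CNS, at 214 and 203 FPKM beside 167 and 122 FPKM in dLN (log2 ratio 0.55, SE 0.16, adjusted p = 0.0317). P4hb, the archetypal isomerase, was at 156 and 162 FPKM in CNS and at 155 and 127 FPKM in dLN, and Pdia4 was at 44.1 and 42.6 FPKM in CNS and at 75.2 and 49.5 FPKM in dLN. Neither passed the test, with log2 ratios of 0.18 (SE 0.12, adjusted p = 0.221) and -0.48 (SE 0.21, adjusted p = 0.0863). The balance within a library moved with them, since Pdia6 was at 0.289 and 0.321 times the P4hb level in the CNS libraries and at 1.22 times in both dLN libraries. Such ratios of genes within a library do not depend on how the libraries were scaled to each other. The Pdia3 call was lost with no filter, with libraries scaled to the same sum, and without CNS replicate 1, CNS replicate 2 or dLN replicate 2.

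Of the genes of ER-associated degradation, which withdraws misfolded protein from the ER to the proteasome, 6 were lower in CNS and 1 was higher. Syvn1, the ubiquitin ligase HRD1, was at 8.56 and 9.24 FPKM in CNS and at 29.0 and 24.96 FPKM in dLN (log2 ratio -1.496, SE 0.11, adjusted p = 0.000306). Its adaptor Sel1l was at 7.67 and 7.75 FPKM in CNS and at 18.2 and 14.4 FPKM in dLN (log2 ratio -0.98, SE 0.13, adjusted p = 0.002). So both parts of the ligase complex were lower in CNS, without overlap. Among the derlins, which help to move substrates out of the membrane, Derl1 was at 37.9 and 35.0 FPKM in CNS and at 56.9 and 55.0 FPKM in dLN (log2 ratio -0.61), and Derl2 was at 10.05 and 8.05 FPKM in CNS and at 14.4 and 12.3 FPKM in dLN (log2 ratio -0.52). Derl3, the derlin with the most restricted expression, was at 0.121 and 0.283 FPKM in CNS and at 3.90 and 2.40 FPKM in dLN. These values stood for about 3 and 7 fragments in CNS and 82 and 61 in dLN, and allowing for depth the dLN level was 15.2 times that of CNS (95% interval 8.01 to 32.3, counting error only), a ratio that the log2(FPKM + 1) scale shrinks to -1.77. Herpud1, a scaffold of the complex, was at 39.4 and 47.3 FPKM in CNS and at 71.0 and 60.8 FPKM in dLN (log2 ratio -0.60).

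Edem1 went the other way. Edem1 encodes a lectin-like protein that marks glycoproteins for degradation after their mannoses have been trimmed, and it was at 51.8 and 52.5 FPKM in CNS and at 23.9 and 18.1 FPKM in dLN. Its log2 ratio of 1.28 (SE 0.15, adjusted p = 0.00113) was the highest of the 45 genes and stayed between 1.09 and 1.48 over every setting. Selk, a selenoprotein of the ER membrane, was at 93.5 and 89.1 FPKM in CNS and at 92.3 and 82.2 FPKM in dLN, which overlapped (log2 ratio 0.07, SE 0.09, adjusted p = 0.538).

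Genes of the entry into the ER split within complexes. The Sec61 channel has 3 subunits: Sec61a1, the pore itself, was at 93.0 and 113 FPKM in CNS and at 199 and 186 FPKM in dLN, a log2 ratio of -0.90 (SE 0.12, adjusted p = 0.00179). The small subunits were higher in CNS, Sec61b at 235 and 257 FPKM beside 164 and 132 FPKM in dLN (log2 ratio 0.74, SE 0.13, adjusted p = 0.00528) and Sec61g at 169 and 171 FPKM beside 118 and 97.0 FPKM in dLN (log2 ratio 0.66, SE 0.12, adjusted p = 0.00517). Sec61b was therefore at 2.52 and 2.28 times the Sec61a1 level in CNS and at 0.827 and 0.707 times in dLN. In the translocon-associated protein complex, which assists some signal sequences at the channel, Ssr1 (16.4 and 14.9 FPKM in CNS against 26.4 and 24.5 FPKM in dLN) and Ssr2 (57.9 and 56.8 FPKM in CNS against 94.6 and 86.4 FPKM in dLN) were lower in CNS, with log2 ratios of -0.67 and -0.65. Ssr3 did not pass the test, at 90.0 and 76.3 FPKM in CNS and at 88.7 and 71.7 FPKM in dLN (log2 ratio 0.06, SE 0.14, adjusted p = 0.74). Ssr4 was higher in CNS by a small step, at 131 and 138 FPKM beside 118 and 111 FPKM in dLN (log2 ratio 0.24, adjusted p = 0.0455). This call was lost without any one of the 4 libraries and in 4 other settings, and the sign turned when transcript length was corrected (-0.16).

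The signal recognition particle, which brings ribosomes with nascent secretory chains to the channel, held genes of both signs. Srp14 was at 138 and 139 FPKM in CNS and at 170 and 171 FPKM in dLN (log2 ratio -0.29, SE 0.07, adjusted p = 0.0149), and Srp9, with which it pairs, was at 64.9 and 58.6 FPKM in CNS and at 50.5 and 48.8 FPKM in dLN (log2 ratio 0.31, SE 0.09, adjusted p = 0.0286). The Srp9 call was lost with libraries scaled to the same sum (log2 ratio 0.11) and with transcript length corrected (0.15). That of Srp14 was lost with the same upper quartile (-0.16). With 1 library left out, the log2 ratio of Srp9 ranged from 0.24 to 0.38. Srp54a, which binds the signal sequence, was at 16.9 and 15.4 FPKM in CNS and at 29.5 and 26.0 FPKM in dLN (log2 ratio -0.74). Srp54a has near-identical copies in the mouse genome, so its level is uncertain.

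The signal peptidase, which cleaves the signal sequence in the ER lumen, had no gene called lower in CNS. Its genes summed to 448 and 418 FPKM in CNS and to 339 and 276 FPKM in dLN. Sec11c, a catalytic subunit, was at 122 FPKM in both CNS libraries and at 64.4 and 43.7 FPKM in dLN, a log2 ratio of 1.19 (SE 0.19, adjusted p = 0.00377). The alternative catalytic subunit Sec11a was at 125 and 117 FPKM in CNS and at 105 and 92.7 FPKM in dLN (log2 ratio 0.29, SE 0.10, adjusted p = 0.0408), so that the ratio of Sec11c to Sec11a was 0.979 and 1.04 in CNS and 0.615 and 0.471 in dLN. Spcs2, an accessory subunit, was at 69.8 and 60.9 FPKM in CNS and at 43.5 and 32.3 FPKM in dLN (log2 ratio 0.78, SE 0.17, adjusted p = 0.0101). The other accessory subunits did not pass the test: Spcs1 was at 84.7 and 78.6 FPKM in CNS and at 72.8 and 62.8 FPKM in dLN, and Spcs3 was at 46.7 and 39.1 FPKM in CNS and at 53.7 and 44.3 FPKM in dLN. The Sec11c call was lost without CNS replicate 1, where the adjusted p was 0.0523, and the Spcs2 call without either CNS library. The Sec11a call was lost without any one of the 4 libraries and in 4 other settings.

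Several of the genes higher in CNS had short transcripts. The 5 genes with a main transcript under 1000 bases (Sec61b, Sec61g, Sec11c, Ssr4 and Srp14) had a median log2 ratio of 0.66, with 4 higher and 1 lower in CNS, and the other 40 had a median of -0.63. Over all genes tested the medians were 0.48 under 1000 bases (1003 genes) and 0.0002 above, so the tendency was one of the tables as a whole. Across genes, which are not independent, Spearman's rho of length and log2 ratio was -0.10 over the 45 genes and -0.12 over all genes tested. The log2 values of each library were also corrected for transcript length, a setting added after the values had been seen. Sec61b (log2 ratio 0.20), Sec61g (0.24), Ssr4 (-0.16), Srp9 and Sec11a were then no longer called higher. Sec11c, Spcs2, Edem1, Ern1, Eif2ak3 and Pdia3 still were. Dnajc3 gained a call as higher in CNS (0.53) and Pdia4 one as lower (-0.50). The split between Sec61a1, which stayed lower, and its small subunits was thus smaller, and the part of length in it was not tested further.

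**Figure D4:**
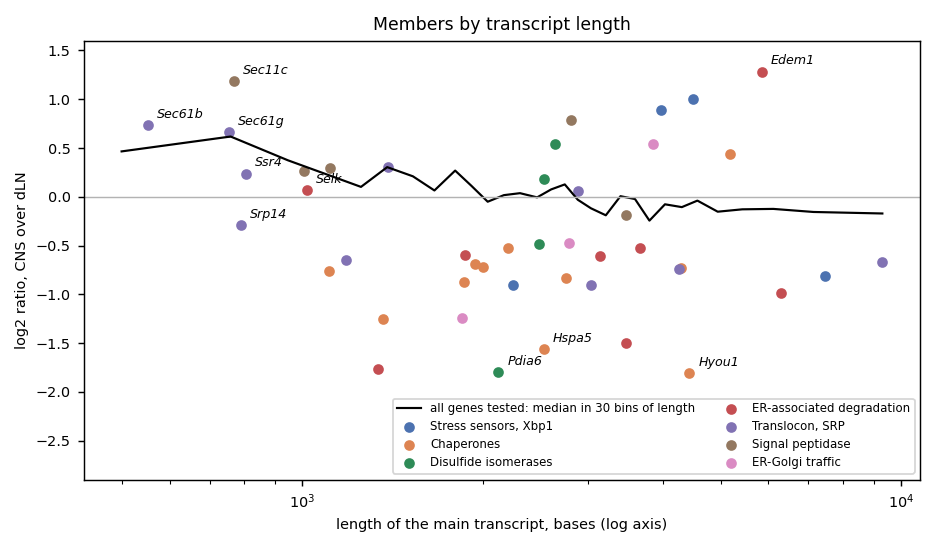
Log2 ratio of CNS over dLN against the length of the main transcript (log axis) for the 45 genes, coloured by role; the black line is the median of all genes tested in bins of length. The line lies above 0 for short transcripts, where Sec61b, Sec61g, Sec11c and Ssr4 lie, while Hspa5, Pdia6 and Hyou1 lie far below it.

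In the traffic between ER and Golgi, Kdelr2, which encodes a receptor that returns escaped chaperones to the ER, was at 17.2 and 21.3 FPKM in CNS and at 50.7 and 42.8 FPKM in dLN (log2 ratio -1.24, SE 0.15, adjusted p = 0.00126). Sec23b, of the inner COPII coat that buds vesicles from the ER, was lower by less, at 27.3 and 26.4 FPKM in CNS and at 41.2 and 34.1 FPKM in dLN (log2 ratio -0.47, SE 0.12, adjusted p = 0.0171). Its partner Sec24d was at 10.5 and 12.1 FPKM in CNS and at 10.5 and 5.17 FPKM in dLN. The dLN libraries differed 2.04-fold there, more than for any other of the 45 genes, and Sec24d did not pass the test (log2 ratio 0.54, SE 0.31, adjusted p = 0.168).

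The promoters of the genes were searched for the elements through which the unfolded protein response is known to act. RefSeq promoters (build GRCm38.p6) were given for 36 of the 45 genes, and 250 bases before the start were read on both strands. The ER stress element (ERSE), spelled CCAAT, 9 bases of any kind and CCACG, was found in 9 of 36 (25%) and in 35 of 27025 genes with a promoter (0.13%). The 9 were Hspa5, Hsp90b1, Dnajc3, Creld2, Calr, Canx, Pdia6, Syvn1 and Derl3. It has been described in several of these promoters, so its presence is a property of the list. Of the 9, 8 were lower in CNS, 0 were higher and Dnajc3 did not pass the test. Over all genes tested 37.2% were called lower and 37.8% higher, and genes with an ERSE outside the list were not compared. The median log2 ratio of the 9 was -1.25. Of the 27 genes with a promoter but no ERSE in this window, 11 were lower, 10 were higher and 6 did not pass the test, with a median of 0.07. Role and ERSE overlapped, since Hspa5, Hsp90b1, Dnajc3, Creld2, Calr and Canx are chaperones, of which 10 of 11 were lower. The chaperones among the 27, Dnajb9, Dnajb11 and Sdf2l1, were all lower as well. The part of role in these medians was not tested. The 9 genes without a promoter in the table (Atf6, Hyou1, Manf, Derl1, Sec61a1, Ssr2, Spcs3, Sec11c and Kdelr2) had a median of -0.65. Among them, 7 were lower in CNS, 1 was higher and 1 did not pass the test. These are descriptions of lists chosen with the values known, and no test of the difference was made. The windows below are those of the 5 ERSE genes with the lowest log2 ratios and of Dnajc3, the exception; capitals mark the CCAAT and CCACG ends, which read CGTGG and ATTGG where the element lies on the other strand:
Pdia6: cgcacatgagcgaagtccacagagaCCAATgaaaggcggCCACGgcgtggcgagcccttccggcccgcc
Derl3: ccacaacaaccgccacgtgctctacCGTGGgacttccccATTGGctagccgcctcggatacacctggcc
Hspa5: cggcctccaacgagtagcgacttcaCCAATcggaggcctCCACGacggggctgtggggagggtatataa
Syvn1: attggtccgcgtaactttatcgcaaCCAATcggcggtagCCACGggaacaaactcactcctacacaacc
Creld2: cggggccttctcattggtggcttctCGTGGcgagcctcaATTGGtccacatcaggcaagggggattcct
Dnajc3: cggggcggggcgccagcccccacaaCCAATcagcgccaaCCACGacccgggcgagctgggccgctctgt
They lie at chr12:17266466-17266534 (plus strand), chr10:75893217-75893285 (plus), chr2:34772000-34772068 (plus), chr19:6046507-6046575 (plus), chr15:88819495-88819563 (plus) and chr14:118937802-118937870 (plus), each written 5' to 3' on the strand of its gene. The element of Hspa5 spans -65 to -47 relative to the start, just before the letters tataa at the end of its window, and that of Dnajc3 spans -105 to -87.

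Herpud1 held the only ERSE-II, spelled ATTGG, 1 base of any kind and CCACG, and found in 0.037% of genes, and also the only ATF4 element TTGCATCA (0.918% of genes). It was the only promoter of the set with both. The window below shows the ERSE-II only, and the ATF4 element lies outside it (chr8:94386352-94386412, plus strand, capitals for the ends of ERSE-II):
Herpud1: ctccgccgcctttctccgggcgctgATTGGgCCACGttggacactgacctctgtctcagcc
An unfolded protein response element spelled TGACGTGG was found in Sec24d and in 0.603% of genes. The 5 letters of the ERSE ends are common by themselves, CCAAT in 37.5% and CCACG in 31.0% of promoters, and overlap with the longer elements.

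**Figure D5:**
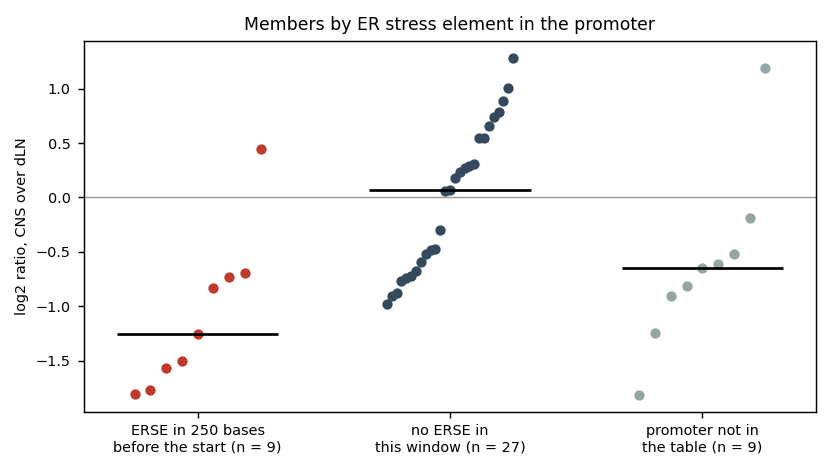
Log2 ratio of CNS over dLN for the 9 genes with an ERSE in the 250 bases before the start, the 27 with a promoter without one in this window and the 9 without a promoter in the table; points are genes and lines are medians (-1.25, 0.07 and -0.65). Among the 9 ERSE genes only Dnajc3 lies above 0.

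Other genes of the pathway were read from 6 lists chosen by function. Of 183 listed genes 174 were tested, 86 were lower (49.4%), 47 were higher (27%) and 41 did not pass the test, beside 37.2% lower and 37.8% higher of all genes tested. Their median log2 ratio was -0.27. The genes named are those with the largest called changes of each list that reached a mean of 10 FPKM in 1 tissue. Among 15 regulators of the unfolded protein response 9 were lower (60%) and 4 were higher (26.7%). Atf4, the transcription factor of the PERK branch, was at 125 and 129 FPKM in CNS and at 366 and 378 FPKM in dLN (log2 ratio -1.54), and its target Trib3 had a log2 ratio of -1.55. Creb3l2, a membrane-bound transcription factor related to Atf6, was at 3.40 and 4.25 FPKM in CNS and at 21.7 and 23.6 FPKM in dLN (log2 ratio -2.30). The PERK gene itself was higher in CNS, so the branch held members of both signs.

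Of 33 further folding and redox genes 14 were higher (42.4%) and 10 lower (30.3%), near the shares of all genes. Ppib, a prolyl isomerase of the ER, was at 291 and 276 FPKM in CNS and at 114 and 98.2 FPKM in dLN (log2 ratio 1.41), and Qsox1, a sulfhydryl oxidase, had a log2 ratio of 1.92. Mogs, which trims the first glucose from glycans, had one of -1.41. Of 24 further degradation genes 11 were higher (45.8%) and 10 lower (41.7%). The 3 named by the rule were higher: the lectins Os9 (57.6 and 62.5 FPKM in CNS against 18.0 and 14.2 FPKM in dLN, log2 ratio 1.84) and Erlec1 (1.66), and Ubac2 (1.74). Os9 and Erlec1 read trimmed mannoses for the Syvn1 and Sel1l complex, so these lectins were higher in CNS with Edem1, where the ligase genes were lower.

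Of 25 further translocation genes 17 were lower (68%) and 4 higher (16%). Srprb, the membrane anchor of the receptor of the signal recognition particle, was at 11.6 and 14.3 FPKM in CNS and at 48.7 and 50.1 FPKM in dLN (log2 ratio -1.86). Emc6, of the ER membrane complex, had a log2 ratio of -1.52, and Tram1, which sits beside the channel, one of 1.13. Of 29 genes of N-glycosylation 12 were lower (41.4%) and 5 higher (17.2%). The 3 named by the rule were lower: Stt3a, a catalytic subunit of oligosaccharyltransferase (55.4 and 54.6 FPKM in CNS against 174 and 169 FPKM in dLN, log2 ratio -1.62), and Alg3 (-1.82) and Alg8 (-2.01), which build the glycan donor. Of 48 traffic genes 28 were lower (58.3%) and 9 higher (18.8%). Kdelr1 was at 47.8 and 44.9 FPKM in CNS and at 23.9 and 21.1 FPKM in dLN, a log2 ratio of 1.01, opposite to that of Kdelr2. Kdelr2 had the higher level of the pair in dLN and Kdelr1 in CNS. Ergic3 (1.33) was higher and the cargo receptor Lman1 (-0.98) lower. All named here passed the test in limma (adjusted p at most 0.00393).

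Genes of secreted cytokines and of T cell stimulation also differed between the tissues. The 29 cytokine and chemokine genes summed to 2693 and 3536 FPKM in CNS and to 12757 and 12702 FPKM in dLN, and of 28 tested 14 were lower and 4 higher in CNS (64.3% called, beside 74.9% of all genes). Il2 alone was at 18.2 and 38.8 FPKM in CNS and at 5363 and 6176 FPKM in dLN, and without it the sums were 2675 and 3498 FPKM (CNS) and 7394 and 6526 FPKM (dLN). Not all cargo followed, since Ccl5 was at 1269 and 1019 FPKM in CNS and at 5.98 and 4.31 FPKM in dLN, and Ifng was at 469 and 693 FPKM in CNS and at 324 and 138 FPKM in dLN. Of 16 genes induced by T cell stimulation 13 were lower and 2 higher in CNS (93.8% called), with sums of 1972 and 2637 FPKM beside 11188 and 12734 FPKM in dLN. Il2, Tnf and Ifng are in both lists, and Il2 was the largest single value in the dLN sums of each, so that the lists are not separate results. The part of stimulation or of cargo in the differences of the ER genes was not tested. Pou2af1 was at 0.0792 and 0.253 FPKM in CNS and at 92.1 and 105 FPKM in dLN, whereas Pax5 and Tnfrsf17 were listed at 0 in both tissues.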

How the data were processed

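CD44+CD4 cells were sorted from spinal cords and pooled dLN, and RNA libraries (TruSeq, HiSeq2500) gave 2 samples per tissue. Per the Methods, reads were trimmed and mapped by the authors. The deposited values are FPKM of 33819 RefSeq transcripts (mm10), with a table for each tissue. The program that computed FPKM is not given in the sources used here. The CNS header holds both library names in 1 cell, and the columns under it were taken in that order. From the deposited FPKM, transcripts were summed by symbol, and 565 without a symbol (0.142% to 0.446% of FPKM) were left out. Starts count from 0 in the tables, and 1 was added here. The fit was limma 3.58.1 (lmFit, eBayes with trend, R 4.3.3), with tissue as the only term. In data simulated for the CNS against dLN fit (10634 genes), it called 145 of 200 changed genes and 7 unchanged ones. Depth was read from steps among low values (89.8% to 93.5% on steps, 10% by chance, largest error 1.26% in simulated data), and its intervals cover counting error only. Replicate differences of CNS and dLN were nearly uncorrelated over genes (0.0933). With a single difference per tissue this cannot tell whether replicate numbers paired the libraries. Strand and exons came from GENCODE M21, promoters from RefSeq. Python 3.11.15 was used for the rest. All 45 genes are given, and of the wider lists the 3 largest called changes per list reaching a mean of 10 FPKM in 1 tissue. The genes, lists and tests were chosen with earlier results of these data known. Pseudocount, filter, scaling, transcript choice, moderation, a replicate block, single libraries and length were varied.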

Additional observations from a re-analysis of the deposited data

How the results depend on the processing

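Of 494 comparisons of single ER genes over 11 other settings, 455 neither changed sign nor crossed the threshold. With all libraries scaled to the same sum of FPKM, which lowered the median log2 ratio of all genes by 0.17 and left 43.1% of calls higher in CNS (50.4% otherwise), 7 of the 45 genes were called higher in place of 11, 31 of the wider pathway genes in place of 47, and the log2 ratios of P4hb (-0.018), Selk (-0.13) and Ssr3 (-0.14) reversed. With the same upper quartile, which raised that median by 0.12 and gave 55.6%, 14 genes were called higher and 22 lower, and Sdf2l1, Manf, Derl2 and Srp14 were no longer called. The correction for transcript length, chosen after seeing the data, left 7 called higher and reversed Selk (-0.23), Ssr4 (-0.16) and Spcs1 (-0.034). Leaving out 1 library at a time left 3 to 10 genes called higher and 18 to 26 lower, with the median of the 45 between -0.71 and -0.39. The lowest counts were without CNS replicate 1. Over these 4 fits the log2 ratio ranged from -0.016 to 0.15 for Selk and from -0.10 to 0.21 for Ssr3. In those fits the lone library of a tissue is assumed to vary like the others. A block on the replicate number gave 7828 called genes in place of 7968, the ER genes stayed at 11 higher and 26 lower, Ssr4 lost its call and Dnajc3 gained one. The cause of these changes was not tested. With 2 libraries per tissue a gene's spread rests on 4 values, and at the depth here 1 fragment decides values such as those of Derl3 in CNS.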
